A study of Rattus norvegicus with 17 samples.

Results

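The liver of weaned male rats was examined for the average effect of a choline-deficient diet given to the mother during pregnancy. All 17 of the 17 arrays of the series entered it, chosen by their titles alone: 9 livers from deficient pregnancies and 8 from adequate ones. For each gene the effect is the mean of 2 differences that share no array, deficient minus adequate pregnancy diet within adequate lactation and the same within deficient lactation, in log2 units. A gene is described as differing by pregnancy diet irrespective of lactation diet only where both differences have the same sign.

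The pups were male Wistar rats, 24 days old, with 1 male taken from each litter. Every mother, controls included, had first been fed an AIN-93 M diet lacking choline for 16 weeks to give her a fatty liver and was then mated with a healthy male. There was therefore no group whose mothers had choline throughout. In the group names the first letter is the pregnancy diet and the second the lactation diet, with N for the standard AIN-93 G diet (adequate choline) and D for continued deficiency. NN, ND and DD hold 4 livers each and DN holds 5, so the adequate pregnancy groups are NN and ND and the deficient ones DN and DD.

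Choline is built into phosphatidylcholine, which liver needs to secrete fat in very low density lipoproteins, and is oxidised to betaine, which gives a methyl group to homocysteine to remake methionine. Methionine becomes S-adenosylmethionine, the methyl donor for DNA, histones and for the liver's own synthesis of phosphatidylcholine by Pemt. In rodents a diet without choline gives a fatty liver, and maternal choline and folate in pregnancy are known to influence DNA methylation in the offspring.

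The values are relative array signals, and the 17 arrays limit the precision: the median standard error of the average effect was 0.119. Alb, Tf, Ttr and Serpina1, made by hepatocytes, had mean signals of 11.69, 11.46, 11.16 and 9.85, and their mean lay between 10.94 and 11.11 in every liver, although a description field names the LnCap prostate line. Marker means of Kupffer, stellate, endothelial, bile duct, erythroid, lymphoid and pancreatic cells overlapped between the diets, and of the markers measured only Dcn had an unadjusted p under 0.05. In whole tissue, fewer cells of a type and less RNA per cell cannot be told apart.

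One property of the whole array was compared between the diets. The spread of the signals, measured as their SD over every probe set, had a mean of 1.70 ± 0.057 (SD, n = 4) in NN, 1.75 ± 0.029 (n = 5) in DN, 1.74 ± 0.041 (n = 4) in ND and 1.67 ± 0.052 (n = 4) in DD. Averaged over lactation diets the pregnancy diet shifted it by -0.0125 (2-sided exact permutation test within lactation diets, p = 0.639). The shift differed between lactation diets by -0.116 (exact permutation p = 0.0200 with the same permutations). This second test was not planned. Its permutations take no pregnancy effect under either lactation diet as the null, and not equal effects under both. NN 2 had a spread of 1.79 against 1.66 to 1.68 in the other NN livers. Dixon's test for a single distant value did not flag it, and ND 4 and DN 4 also had 1.79. Its mean correlation with the rest was 0.965. NN 2 is left out below because the count of interaction calls changed without it, and not as an outlier. DD 3 and DN 3 correlated least with the rest, at means of 0.940 and 0.948. For genes described as differing, and for lists led with, values without these arrays stand beside the result where leaving them out turned the sign of a difference or moved the average by more than 1.5 times, and the part of spread in the results was not tested beyond the fits that hold it as a covariate.

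**Figure D1:**
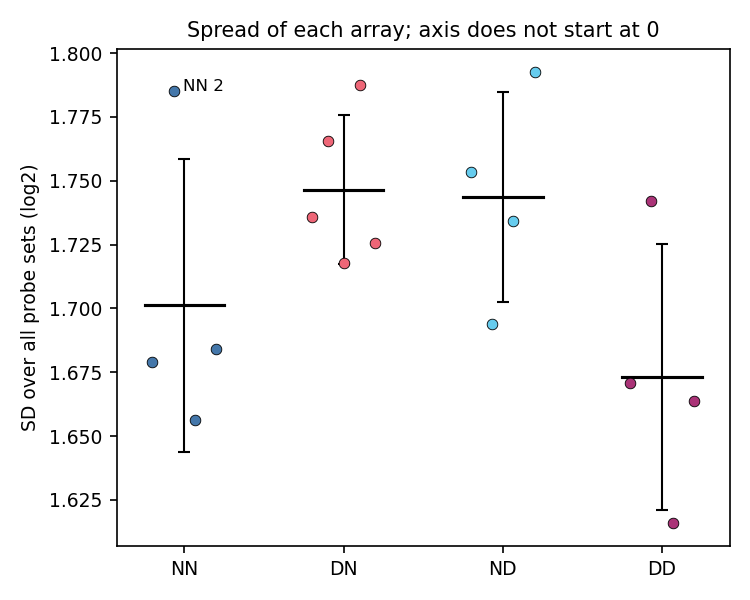
Each point is 1 liver; the vertical axis is the SD of its log2 signals over all probe sets, with the group mean and SD as bars. The spread was higher in DN than in NN on average and lower in DD than in ND, and NN 2 (1.79) lies above the other 3 NN livers (1.66 to 1.68).

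Averaged over the lactation diets, pregnancy diet left no single gene different enough to pass the test in the liver at weaning. Of 12912 genes tested, 0 (0%) were called by limma at a Benjamini-Hochberg adjusted p under 0.05, and the smallest adjusted p was 1.00. At an unadjusted p under 0.05 there were 367 genes (2.84%), 130 of them higher (1.01%) and 237 lower (1.84%) after a deficient pregnancy. Differences were small: the median was -0.02, the SD over genes 0.127, and 32 genes differed by more than 0.5. The average effect of the lactation diet, estimated from the same arrays, likewise had 0 calls by limma and 407 genes (3.15%) at an unadjusted p under 0.05. Both shares lie below what a threshold of 0.05 passes on average where nothing differs. Neither count is therefore a sign of an effect.

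The 2 genes beyond 1 log2 unit on average were Scp2 and Oaz2. Oaz2, an antizyme that restrains polyamine synthesis, had the largest positive difference, 1.07 ± 0.454 (SE), when the probe set of highest signal stood for each gene, and 0.30 with the mean of its probe sets. Retsat, a retinol saturase, had the largest negative one, -0.80 ± 0.301, and -0.53 without DD 3 and DN 3. Both were singled out after their values were seen. Oaz2 measured 4.57, 4.71, 7.20 and 6.93 in NN, 5.90, 7.24, 7.26, 6.37 and 8.18 in DN, 5.85, 4.00, 6.01 and 6.86 in ND, and 5.59, 6.94, 7.29 and 6.91 in DD. The groups overlap, and the spread within NN (SD 1.41) exceeds the difference. Retsat was lowest in DD 3 (5.54) against 7.46 to 7.88 in the other DD livers, and DN 4 (8.62) was the highest of all 17.

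Pregnancy differences mostly had opposite signs under the 2 lactation diets. Within adequate lactation (DN minus NN), limma called 0 genes and 1732 (13.4%) had an unadjusted p under 0.05. Within deficient lactation (DD minus ND), it called 0 and 1132 (8.77%) had one. Only 4147 genes (32.12%) had the same sign in both differences, 1533 higher in both and 2614 lower in both. Another 4211 were higher after deficient pregnancy under adequate lactation and lower under deficient lactation, and 4554 were the reverse.

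Across the 12912 genes the 2 differences correlated negatively (Pearson -0.551, Spearman -0.510). This is a description, since genes on the same arrays are not independent. The share with the same sign was 29.76% among genes with a mean above the median of all values and 37.27% among the dimmer ones. With array spread as a covariate it was 44.09% and the correlation was -0.293. Of the 273 genes at an unadjusted p under 0.05 in both differences, which are 15.8% of the DN minus NN list and 24.1% of the DD minus ND list, 268 had opposite signs and 5 the same: Abcg3l3, Ftsj3-ps1, Or5m9, Pde8b and Tnfsf15.

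**Figure D2:**
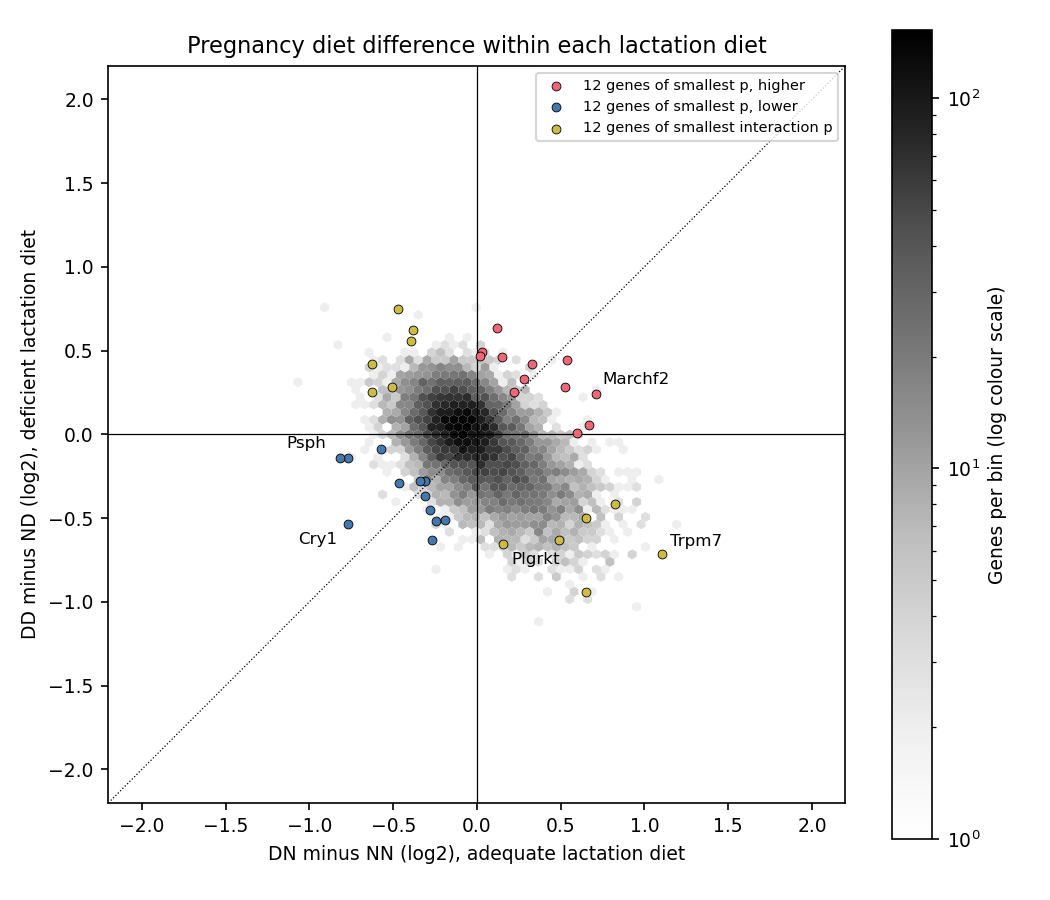
Each hexagon counts genes by their DN minus NN difference (horizontal, log2) and DD minus ND difference (vertical, log2), with darker grey for more genes on a log colour scale; the dotted line marks equal differences. The cloud runs from upper left to lower right, across the dotted line, and the 24 genes described as differing in one direction lie in the lower left and upper right quadrants.

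The test of the difference between the 2 lactation diets, the interaction, called 0 of 12912 genes by limma over all 17 arrays (smallest adjusted p = 0.114), with 2580 (20.0%) at an unadjusted p under 0.05. Without NN 2, 639 genes (4.95%) passed an adjusted p under 0.05, 483 with a negative and 156 with a positive interaction. In 639 of the 639 the 2 differences had opposite signs. Selection by the interaction favours opposite signs, so this count is no separate support. Over all genes in that fit, 29.41% had the same sign. NN 2 was singled out after these counts were seen, so the calls without it are a description. With NN 2 left out and array spread also held as a covariate, 0 passed and 688 had an unadjusted p under 0.05. The average pregnancy effect had 0 calls by limma in each of these fits.

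Trpm7, a cation channel with a kinase domain, shows the pattern. It measured 4.55, 5.27, 4.84 and 4.31 in NN and 5.26, 5.67, 6.45, 6.07 and 5.80 in DN. Under deficient lactation it measured 5.84, 4.96, 5.42 and 6.16 in ND and 4.60, 5.25, 4.76 and 4.92 in DD. DN livers were above NN livers apart from NN 2 and DN 1, and DD livers below ND livers apart from DD 2 and ND 2, so that differences of 1.11 ± 0.257 and -0.72 ± 0.271 averaged to 0.19 ± 0.187. The interaction of -1.82 ± 0.374 did not pass over all 17 arrays (limma, adjusted p = 0.114) and passed without NN 2 (-1.998 ± 0.371, limma adjusted p = 0.0269).

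Hspb9, a small heat shock protein, had the opposite signs: 4.11, 3.39, 4.36 and 4.26 in NN, 3.50, 3.54, 3.55, 3.21 and 3.24 in DN, 3.39, 3.65, 3.76 and 3.38 in ND, and 4.06, 3.76, 4.03 and 4.02 in DD. NN 2 was the lowest NN liver and lay among the DN livers. Rida, an enzyme that clears reactive imines, Cpq, a carboxypeptidase, and Plgrkt, a plasminogen receptor, had negative interactions of -1.15 ± 0.239, -1.12 ± 0.221 and -0.81 ± 0.149, and Slc16a11, a monocarboxylate transporter, a positive one of 0.95 ± 0.226. The 12 interaction genes named by the rule, 6 of each sign, had adjusted p of 0.114 over all 17 arrays, and 12 of 12 passed without NN 2.

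Without NN 2 the interaction calls were mostly of negative sign, that is higher in DN than in NN and lower in DD than in ND. Of the 31 lists, the share called was highest in hepatocyte identity (5 of 20), cytochrome P450 and conjugation (8 of 42) and sinusoidal and vascular endothelium (3 of 18), followed by choline oxidation and the methionine cycle (2 of 14) and fatty acid oxidation (5 of 36), against 4.95% of all genes. Also above that share were gluconeogenesis and amino acid catabolism (3 of 28, 10.7%) and bile acid synthesis and transport (2 of 19, 10.5%). Some other hepatocyte lists lay near or below it. Lipogenesis and glycolysis had 1 of 20, acute phase proteins 1 of 17, and lipid droplets and very low density lipoprotein export 0 of 24. No list was tested against the rest. The examples that follow were chosen after their values were seen. Nr1i3, the xenobiotic receptor CAR, had differences of 1.27 and -0.88 (limma adjusted p = 0.0219). Eci2, an isomerase of beta-oxidation, had 1.23 and -0.60 (limma adjusted p = 0.0281), and Cyp2a1, a steroid hydroxylase, 0.47 and -0.84 (limma adjusted p = 0.0321). Over all 17 arrays the adjusted p of Cyp2a1 was 0.114, and its average effect was -0.25 ± 0.150.

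Of genes with the same sign under both lactation diets, those with the smallest p among brighter genes are described here, 12 in each direction; each had an adjusted p of 1.00 by limma. Among the higher genes was Marchf2, a membrane-bound ubiquitin ligase. It measured 5.21, 5.20, 4.81 and 5.03 in NN against 5.89, 5.67, 5.75, 5.92 and 5.63 in DN, and 5.28, 5.72, 5.61 and 5.32 in ND against 5.83, 5.78, 5.35 and 5.93 in DD. Every DN liver lay above every NN liver, while DD 3 overlapped with ND. The differences were 0.71 ± 0.140 and 0.24 ± 0.148, averaging 0.47 ± 0.102 (limma, 95% interval 0.26 to 0.69, unadjusted p = 0.000205).

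Sft2d2, a membrane protein of vesicle transport, was more different under deficient lactation. It measured 5.17, 5.39, 5.20 and 4.96 in ND against 5.68, 5.71, 5.50 and 5.68 in DD, with no overlap, and 5.56, 5.45, 5.42 and 5.40 in NN against 5.67, 5.60, 5.65, 5.62 and 5.51 in DN, where NN 1 lay above DN 5. The average was 0.31 ± 0.074. Eloc, an adaptor of ubiquitin ligases, differed by 0.49 ± 0.155, and Stk17b, a kinase, by 0.38 ± 0.121, with similar sizes under both lactation diets (0.54 and 0.44, and 0.33 and 0.42).

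Proteins of the mitochondrial inner membrane were among the higher genes. Ndufb5, a subunit of complex I, differed by 0.28 ± 0.148 and 0.33 ± 0.156 (average 0.30 ± 0.107), and Tmem70, an assembly factor of ATP synthase, by 0.52 ± 0.165 and 0.28 ± 0.174 (average 0.40 ± 0.120). Ndufb5 measured 6.22, 6.28, 5.99 and 5.87 in NN, 6.15, 6.12, 6.58, 6.50 and 6.49 in DN, 6.24, 6.17, 6.01 and 5.91 in ND, and 6.11, 6.24, 6.62 and 6.68 in DD. Livers 1 and 2 of both deficient pregnancy groups lay within the range of the adequate ones, and the others above it. Over the list of 32 respiratory chain genes measured, 1 was higher at an unadjusted p under 0.05 and 0 lower, against 1.01% and 1.84% of all genes. The list median was 0.04 against -0.02 over all genes.

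For 4 of the other higher genes one of the 2 differences lay next to 0. Kmo, which makes 3-hydroxykynurenine in tryptophan breakdown, differed by 0.60 ± 0.152 under adequate and 0.01 ± 0.160 under deficient lactation, and Dcn, the matrix proteoglycan decorin, by 0.67 ± 0.182 and 0.05 ± 0.192. Klk6, a serine protease, and Fuom, fucose mutarotase, differed under deficient lactation (0.49 ± 0.120 and 0.47 ± 0.133) and by 0.03 and 0.02 under adequate lactation. In these 4 genes the smaller difference turned sign when single arrays were left out, and the interaction did not pass over all 17 arrays (limma adjusted p = 0.165 for Kmo, 0.213 for Dcn, 0.154 for Klk6 and 0.193 for Fuom). Prss27, another serine protease, differed about equally under both diets, by 0.22 and 0.25. Rps27l3 differed by 0.12 and 0.64, and the first was -0.03 without DN 3.

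Among the lower genes was Irx1, a homeobox transcription factor. It measured 4.03, 3.56, 4.47 and 3.86 in NN against 3.30, 3.05, 3.30, 3.14 and 3.27 in DN, with no overlap. It measured 3.29, 3.68, 3.38 and 3.34 in ND and 3.12, 2.98, 3.34 and 3.67 in DD, which overlap. The differences were -0.77 ± 0.167 and -0.14 ± 0.176, averaging -0.46 ± 0.122 (limma, 95% interval -0.71 to -0.20, unadjusted p = 0.00151).

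Cry1, a repressor of the circadian clock, had the largest average difference of the 24, -0.65 ± 0.190 (limma, 95% interval -1.05 to -0.25, unadjusted p = 0.00310). It measured 5.10, 4.80, 4.29 and 4.31 in NN against 3.74, 4.14, 3.61, 3.88 and 3.91 in DN, and 4.10, 4.44, 3.47 and 4.95 in ND against 3.78, 3.52, 3.21 and 4.31 in DD. DN lay wholly below NN, and DD and ND overlapped. Of 11 clock genes measured, Cry1 was the 1 at an unadjusted p under 0.05. The other cryptochrome, Cry2, differed by -0.14 and -0.51, and the first was 0.02 without DN 3. The activator Npas2 had opposite signs, 0.03 and -0.65. The activator Bmal1 (chosen after its values were seen) had -0.09 and -0.95, and the first was 0.15 without NN 2. The list median was -0.10, with 8 of 11 negative against 58.1% of all genes tested (7502 of 12912). No label used here gives the hour of tissue collection.

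The other lower genes included Pde8b, a cyclic AMP phosphodiesterase, and the cytokine Tnfsf15, the 2 brighter genes with an unadjusted p under 0.05 in each difference and the same sign in both (averages -0.29 ± 0.081 and -0.34 ± 0.097). Pde8b differed by -0.31 and -0.28 under the 2 lactation diets, and Tnfsf15 by -0.31 and -0.37. Tnfsf15 averaged 2.41 in DD, under the cut for brighter genes (2.58). Hsbp1, which binds heat shock factor, and Rab4a, a GTPase of endosome recycling, differed more under deficient lactation (-0.51 ± 0.155 and -0.52 ± 0.170) than under adequate lactation (-0.19 and -0.24), a contrast that did not pass the interaction test (limma adjusted p = 0.395 and 0.522). Dnlz, a mitochondrial chaperone partner, differed by -0.38 ± 0.107, Psmb11, a proteasome subunit known from thymus, by -0.36 ± 0.102, Gskip, a GSK3-binding protein, by -0.31 ± 0.095, and the ubiquitin ligase Marchf4 by -0.33 ± 0.107. Marchf4 averaged 3.69 in NN, 3.12 in DN, 3.37 in ND and 3.28 in DD, so its difference lay mostly under adequate lactation. Its 2 differences did not keep the same sign in every fit that left out 1 array. Mrps11-ps1 (-0.45 ± 0.134) is a pseudogene by its name, and signal from its parent gene cannot be told apart from its own.

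**Figure D3:**
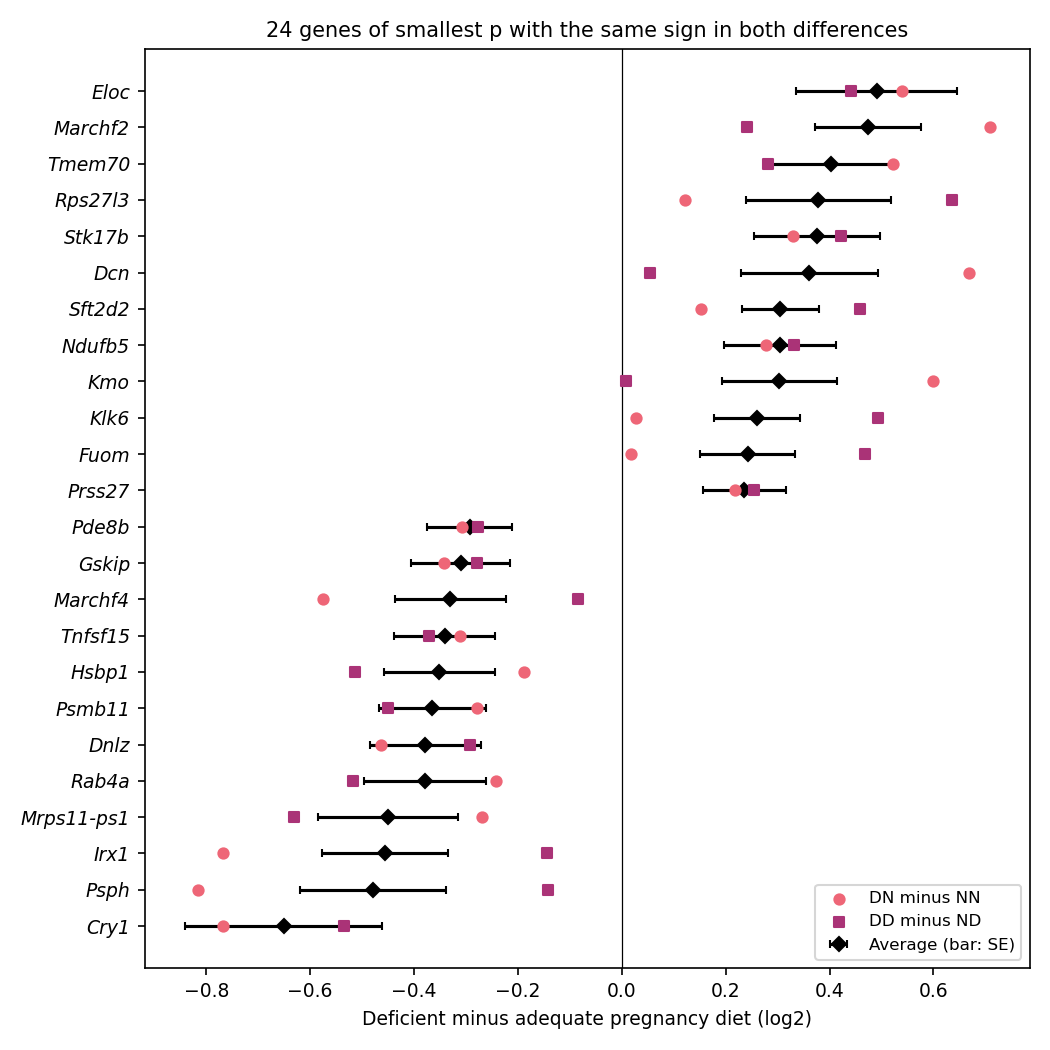
The 24 named genes of smallest p with the same sign in both differences; the horizontal axis is deficient minus adequate pregnancy diet in log2 units. Diamonds are the average with its SE, circles DN minus NN and squares DD minus ND; for Kmo, Dcn, Klk6 and Fuom one of the 2 differences lies next to 0.

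No gene had all 9 deficient pregnancy livers on one side of all 8 adequate ones. Within the lactation diets, 393 of the 12912 genes tested separated DN from NN and 476 separated DD from ND. Chance separates 4 livers from 4 more often than 5 from 4, and neither count was tested. In 1 gene (0.00774% of those tested) the livers separated in the same direction within both, and in 11 in opposite directions. The 1 gene was Or8s10, an olfactory receptor gene, lower after deficient pregnancy by -0.24 ± 0.077, with a mean signal of 2.21 that lay under the median of all values (2.58).

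Genes that handle choline itself showed no average pregnancy difference that could be resolved. Of 15 measured genes of phosphatidylcholine synthesis and choline transport, 0 had an unadjusted p under 0.05 by limma, with a median of -0.02. Pemt, which methylates phosphatidylethanolamine to phosphatidylcholine, differed by 0.03 ± 0.133 (95% interval -0.25 to 0.31), and Pcyt1a, the controlling enzyme of the CDP-choline route, by -0.04 ± 0.109 (-0.27 to 0.19). Chdh, which oxidises choline, differed by -0.14 ± 0.193 (-0.54 to 0.27), and Bhmt, which passes the methyl group of betaine to homocysteine, by -0.15 ± 0.193 (-0.55 to 0.26). Chka, Slc44a1, Dnmt1, Dnmt3a, Igf1 and Igf2 were not analysed here.

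Chpt1, which joins choline to diacylglycerol in the last step of the CDP-choline route, followed the opposite-sign pattern. It measured 5.87, 6.96, 5.80 and 5.50 in NN, 6.71, 6.68, 7.42, 6.95 and 6.67 in DN, 6.92, 6.19, 6.04 and 7.40 in ND, and 5.85, 6.12, 6.34 and 6.21 in DD. DN was above NN apart from NN 2, while 2 of 4 ND livers stood above all DD livers. The differences of 0.85 ± 0.287 and -0.51 ± 0.302 averaged to 0.17 ± 0.208.

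The methionine adenosyltransferases, which make S-adenosylmethionine, are given one by one. Mat2a, the form outside differentiated hepatocytes, measured 7.21, 6.34, 6.70 and 6.99 in NN against 5.74, 6.22, 6.09, 5.69 and 5.85 in DN, with no overlap. It measured 6.13, 6.34, 6.75 and 6.64 in ND against 6.56, 6.996, 6.34 and 6.68 in DD, which overlap. The differences of -0.89 ± 0.186 and 0.18 ± 0.196 have opposite signs, so their average of -0.36 ± 0.135 (limma unadjusted p = 0.0175) is not counted as an effect under both diets. The interaction of 1.07 ± 0.271 did not pass over all 17 arrays (limma adjusted p = 0.114) and was 1.23 ± 0.257 without NN 2 (limma adjusted p = 0.0269).

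Mat1a, the form of adult hepatocytes, was on average 9.55 in NN, 9.85 in DN, 9.76 in ND and 9.56 in DD, with an average effect of 0.05 ± 0.099 (95% interval -0.16 to 0.26). Mat2b, the regulatory subunit that binds Mat2a, differed by 0.73 ± 0.241 and -0.17 ± 0.254. Gnmt, which uses up excess S-adenosylmethionine, and Cbs, which takes homocysteine toward cysteine, each differed by -0.08 on average (SE 0.256 and 0.159). Among the 14 measured genes of choline oxidation and the methionine cycle, Mat2a was the 1 at an unadjusted p under 0.05, and the medians of the 2 differences were 0.14 and -0.19.

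In serine and folate metabolism, which feeds the same methyl pool, the difference was in Psph, the phosphatase of the last step of serine synthesis. It measured 4.39, 4.64, 4.66 and 4.54 in NN, 3.76, 4.08, 3.49, 3.29 and 4.08 in DN, 3.92, 3.67, 3.34 and 4.29 in ND, and 3.75, 3.88, 3.28 and 3.73 in DD. The 4 NN livers lay above every other liver, and the other 3 groups overlapped each other. The differences were -0.82 ± 0.193 and -0.14 ± 0.204, and the average was -0.48 ± 0.141 (limma, 95% interval -0.77 to -0.18, unadjusted p = 0.00320). Psph was 1 of 15 measured list members at an unadjusted p under 0.05, and without ND 4 its second difference was 0.02. Of the 15, 13 were negative, against 58.1% of all genes, with a median of -0.06. Tyms, thymidylate synthase, differed by 0.45 under adequate lactation and had no measurable difference under deficient lactation, where ND and DD both averaged 4.72.

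**Figure D4:**
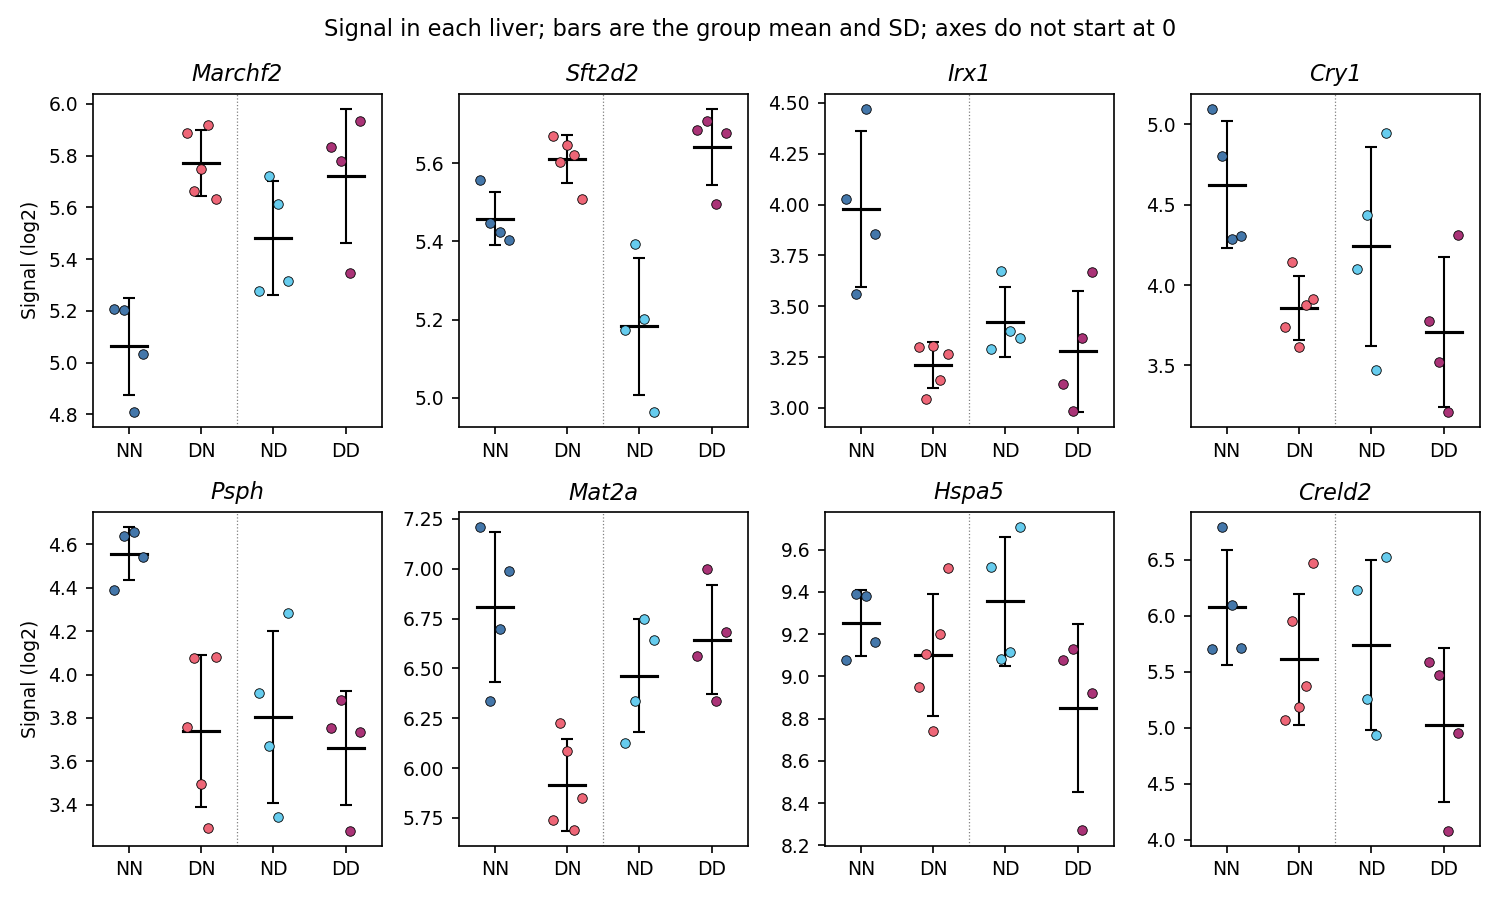
Log2 signal of 8 genes in each liver (points), with the group mean and SD as bars; axes do not start at 0 and the dotted line parts adequate from deficient lactation. NN stands above the rest in Psph, Marchf2 is lowest in NN, Mat2a is lowest in DN only, and in Hspa5 and Creld2 a single DD liver lies far below the others.

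Among genes of DNA and histone methylation, 3 of 16 measured were lower at an unadjusted p under 0.05 and 0 higher, against 1.84% and 1.01% of all genes, with a median of -0.07. They were the arginine methyltransferase Prmt5 (-0.38 ± 0.157), the N-terminal methyltransferase Ntmt1 (-0.20 ± 0.091) and the histone H3 methyltransferase Ezh1 (-0.40 ± 0.189). In Prmt5 both differences were negative (-0.15 and -0.61), the first 0.05 without NN 2, in Ntmt1 only that under adequate lactation (-0.55 and 0.14), and in Ezh1 only that under deficient lactation (0.04 and -0.84). Without DD 3 and DN 3 the average of Ezh1 was -0.24. Without DD 3 the count was 0 of 16, and without DN 3 it was 2. Of 15 measured genes on a list of imprinted genes, 12 were negative, against 58.1% of all genes, with a median of -0.08. Dcn was the 1 at an unadjusted p under 0.05, and it was higher, against the direction of the list. Whether the listed genes, Dcn included, are imprinted in this liver was not measured. H19 ranged from 5.27 to 8.61 over the 17 livers, and its average effect was -0.09 ± 0.434 (95% interval -0.998 to 0.83).

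The list with the most members at an unadjusted p under 0.05 was that of endoplasmic reticulum (ER) stress and the integrated stress response, which raise chaperones and restrain translation when unfolded proteins accumulate. Of 21 measured, 4 were lower and 0 higher, against 1.84% and 1.01% of all genes. On average 14 were negative, against 58.1% of all genes, with a median of -0.10. The 2 differences had medians of opposite sign, 0.01 in DN minus NN (11 positive) and -0.17 in DD minus ND (16 negative). Only 7 of the 21 were lower in both. The 4 at an unadjusted p under 0.05 were Sdf2l1 (-0.36 ± 0.136), a chaperone cofactor of the ER, Hspa5 (-0.33 ± 0.138), the main ER chaperone BiP, Ppp1r15a (-0.23 ± 0.102), which reverses the block of translation, and Creld2 (-0.59 ± 0.273), an ER protein disulphide isomerase. Ppp1r15a averaged 4.005 in NN, 3.602 in DN, 3.993 in ND and 3.938 in DD. Calr, the lectin chaperone calreticulin, differed by -0.24 ± 0.131, and by -0.10 without DD 3 and DN 3, when its difference under adequate lactation was 0.02. Creld2 and Calr, and the motif below, were chosen after values were seen.

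Hspa5 measured 9.08, 9.39, 9.38 and 9.16 in NN, 8.95, 9.11, 8.74, 9.20 and 9.51 in DN, 9.52, 9.08, 9.11 and 9.71 in ND, and 9.08, 9.13, 8.27 and 8.92 in DD. Creld2 measured 5.70, 6.79, 6.09 and 5.71 in NN, 5.07, 5.95, 5.19, 5.37 and 6.47 in DN, 6.23, 5.25, 4.94 and 6.52 in ND, and 5.59, 5.47, 4.08 and 4.95 in DD. All groups overlap within each lactation diet, and DD 3 was the lowest of the 17 livers in both genes. Without DD 3 the averages were -0.23 and -0.43, the list median was -0.04 and 2 members (Sdf2l1 and Ppp1r15a) had an unadjusted p under 0.05. Without DN 3 there was 1. Without both there were 0, with averages of -0.19 for Hspa5 and -0.38 for Creld2, and without NN 2 there were 3.

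The ER stress response element, CCAAT and CCACG parted by 9 bases, is bound by ATF6 with NF-Y in mammalian promoters. Searched on both strands in the 250 bases before the gene start, it was found in 21 of 27457 promoters (0.0765%), in 11 of 10449 of tested genes (0.105%) and in 5 of 16 members of the list that had a promoter sequence (31.2%). This is a description of letters and not of binding. The 5 were Hspa5, Creld2, Calr, Xbp1 and Dnajc3. The first 3 had negative average effects, and Xbp1, the transcription factor of the unfolded protein response, and Dnajc3, an ER co-chaperone, had 0.18 ± 0.231 and 0.03 ± 0.183. Sdf2l1 and Ppp1r15a, lower at an unadjusted p under 0.05, had no copy. The list gathers genes of this response, so its high share is not a result about the diets. Any link between the element and the effect was not tested. The 3 promoters below show the element in Hspa5, Creld2 and Calr. They are RefSeq sequences of build GRCr8, 120 bases on the plus strand, at chr3:38452896-38453015 for Hspa5, chr7:121789224-121789343 for Creld2 and chr19:40213127-40213246 for Calr. Capitals mark the element, which in Creld2 and Calr reads on the opposite strand.
Hspa5: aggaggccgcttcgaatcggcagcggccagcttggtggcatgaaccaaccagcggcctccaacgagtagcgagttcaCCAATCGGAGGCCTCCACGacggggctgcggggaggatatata
Creld2: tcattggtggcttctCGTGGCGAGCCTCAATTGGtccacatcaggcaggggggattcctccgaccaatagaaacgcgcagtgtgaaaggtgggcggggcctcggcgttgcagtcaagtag
Calr: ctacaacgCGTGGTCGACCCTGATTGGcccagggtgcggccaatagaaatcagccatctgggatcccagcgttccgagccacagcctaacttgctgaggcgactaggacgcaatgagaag

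The element ended 25 bases before the start of Hspa5, 127 before that of Creld2 and 214 before that of Calr. The CARE motif of ATF4 targets, TGATGNAA, was in 899 promoters (3.27%), in 243 of tested genes (2.33%) and in 3 of 16 list members. Fgf21, a liver hormone of fasting and an ATF4 target that holds the motif, differed by -0.54 ± 0.369 and -0.57 ± 0.389, averaging -0.56 ± 0.268 (limma, 95% interval -1.12 to 0.01, unadjusted p = 0.0525). Fgf21 ranged from 2.73 to 4.04 in the deficient and from 3.15 to 5.55 in the adequate pregnancy livers, where ND 4 was the highest. Without ND 4 the second difference was -0.06 and the average -0.30.

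In several pathways of fat, sterols and drugs the 2 differences had medians of opposite sign. The 42 measured cytochrome P450 and conjugation genes had a median of 0.33 in DN minus NN, with 34 positive, and -0.25 in DD minus ND, with 34 negative, and -0.04 on average. Fatty acid oxidation and PPARA targets, 36 measured, had 0.18 and -0.24, cholesterol synthesis, 17 measured, 0.15 and -0.36, and bile acid synthesis and transport, 19 measured, 0.31 and -0.10. Lipogenesis and glycolysis, 20 measured, had medians of -0.07 and -0.06. Lipid droplets and very low density lipoprotein export, 24 measured, had -0.01 and -0.12. These medians were negative under each lactation diet, but most members changed sign. The same sign in both differences was seen in 3 of 20 (15%) and 7 of 24 (29.2%), against 32.12% of all genes. In DN minus NN, 12 of the 24 lipid droplet genes were positive and 12 negative. The medians over all genes were -0.03 and -0.02. Of all genes, 44.49% were positive in DN minus NN and 47.14% in DD minus ND.

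Over the 31 lists, with 642 of 897 entries measured, the medians of the average effect ran from -0.14 (glucocorticoid signalling) to 0.04 (respiratory chain). In 24 lists the 2 differences had medians of opposite sign, higher then lower in 18 and lower then higher in 6. The other 7 had negative medians in both and 0 had positive medians in both. Beside the 2 fat lists above, the 7 include imprinted genes (-0.09 and -0.04), the clock (-0.06 and -0.34) and erythroid genes (-0.07 and -0.06).

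**Figure D5:**
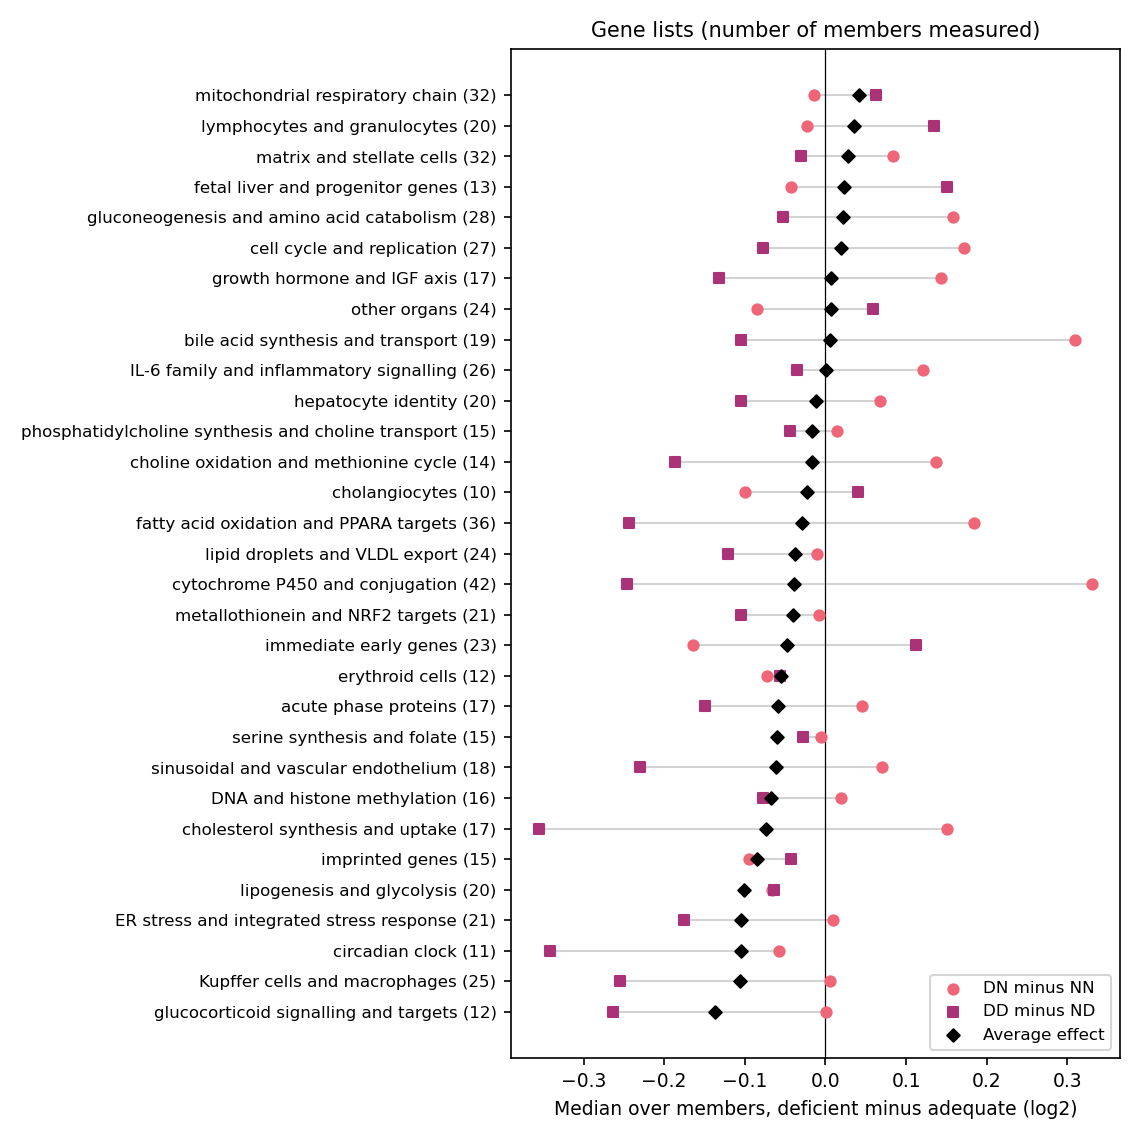
Median difference over the measured members of each gene list (horizontal axis, log2, deficient minus adequate pregnancy diet): circles are DN minus NN, squares DD minus ND and diamonds the average effect. Most diamonds lie near 0 between a circle and a square on opposite sides, as for cytochrome P450 genes (0.33, -0.25 and an average of -0.04).

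Over all 17 arrays, single members of these pathways had the same sign under both lactation diets. Baat, which conjugates bile acids to glycine and taurine, differed by 0.33 ± 0.196 and 0.35 ± 0.207 (average 0.34 ± 0.143). It measured 7.61, 8.24, 8.50 and 8.19 in NN, 8.01, 8.16, 8.92, 8.67 and 8.55 in DN, 8.21, 7.91, 8.12 and 8.16 in ND, and 8.37, 8.13, 8.78 and 8.51 in DD. The groups overlap, and DN 3 and DD 3 were the highest of their groups, without which the average was 0.22. Scp2, sterol carrier protein, differed by 1.04 ± 0.373, but its probe set had a mean of 2.15, under the median of all values, and the highest values were those of DN 3 (4.95), DD 3 (3.79) and DN 4 (3.53), against 1.22 to 2.07 in the adequate pregnancy livers. Without DN 3 and DD 3 it was 0.54. The adequate median of 1.56 lay under the filter value of 1.73. Scp2 would not have been tested on the adequate pregnancy livers alone.

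Acaa2, the thiolase of mitochondrial beta-oxidation, differed by -0.29 ± 0.185 and -0.31 ± 0.195 (average -0.30 ± 0.134), and Eci1, an isomerase of the same pathway, by -0.44 ± 0.234 and -0.24 ± 0.247. The second difference of Eci1 rests on DD 3: without it that difference was 0.03 and the average of -0.34 became -0.21. Of the proteins of lipid droplets, Plin1 differed by -0.44 ± 0.119 and -0.02 ± 0.126, the second 0.05 without ND 2, and Plin2, the main droplet coat of hepatocytes (chosen after its values were seen), by -0.57 ± 0.332 and -0.17 ± 0.350. The second difference of Plin2 was 0.08 without DD 3 and 0.14 without ND 4, and the average of -0.37 was then -0.25 and -0.22. Foxo1, the insulin-restrained activator of gluconeogenesis, differed by -0.31 ± 0.155, with both differences negative (-0.21 and -0.41) and an average of -0.16 without DD 3 and DN 3. None of these passed the test.

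Hormone and developmental genes gave wide intervals. Nr3c1, the glucocorticoid receptor, differed by 0.60 ± 0.259 and -0.28 ± 0.273, with an average of 0.16 ± 0.188 (95% interval -0.23 to 0.56). Cyp2c11, the male form of cytochrome P450 induced by growth hormone pulses in rats, differed by 0.85 ± 0.535 and -0.83 ± 0.564, averaging 0.01 ± 0.389. Afp, the albumin of fetal life, averaged 6.48 ± 0.75 (SD) in NN, 6.43 ± 0.95 in DN, 6.18 ± 0.63 in ND and 5.65 ± 0.58 in DD, an average effect of -0.30 ± 0.323 (SE). Without DD 3 and DN 3 it was -0.014, without DD 3 alone -0.15 and without NN 2 -0.15.

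Genes of the other liver cells had small average differences. Kupffer cell and macrophage genes had 19 of 25 negative, against 58.1% of all genes, and a median of -0.11, with 0 at an unadjusted p under 0.05 by limma, among them C1qb (-0.26 ± 0.145) and Cd5l (-0.32 ± 0.221, and -0.17 without DN 2). The list median was 0.01 in DN minus NN, with 13 of 25 positive, and -0.25 in DD minus ND, with 22 of 25 negative. Tfec, a transcription factor of macrophages, had opposite differences, 0.79 ± 0.218 and -0.67 ± 0.229, and an average of 0.06 ± 0.158. Of 32 matrix and stellate cell genes, Dcn and Lum, another small proteoglycan, were higher at an unadjusted p under 0.05. Thy1 was lower (-0.27 ± 0.098). Of all genes, 1.01% were higher and 1.84% lower at that threshold. Lum differed by 0.33 ± 0.109, at a mean signal of 1.57. It passed the signal filter of 1.73 only through deficient pregnancy livers, its highest adequate value being 1.60. Its difference is therefore not counted as support. Col1a1, the main collagen chain (chosen after its values were seen), differed by 0.27 ± 0.182, and by 0.40 without DD 3 and DN 3.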

How the data were processed

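Biotin-labelled liver RNA of 17 rats was measured on Affymetrix arrays, 1 per animal. The deposited values are log2 signals per probe set, on a base not stated in the labels and taken as 2; the authors' processing notes name RMA and affy without a version. RMA normalises arrays against each other, so values are relative. Of 36685 probe sets, 14824 had 1 gene symbol in the platform annotation, 829 several and 21032 none. For each gene the probe set of highest mean was kept (14557 genes), and 12912 genes were tested, those whose signal passed 1.73 (the 25th percentile over the table) on 4 or more arrays. Groups came from the titles, and no label used here gives a batch or date. The 4 group means were fitted in limma 3.58.1 (R 4.3.3, lmFit and eBayes, 13 residual degrees of freedom), with p adjusted over all tested genes. A value after ± is the SE of a difference or the SD of a group mean. The fit was tested on simulated data.

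Genes named are the 12 of smallest p in each direction with the same sign in both differences and a mean above the median of all values (2.58), 6 in each direction for the interaction, 22 chosen genes of which 15 were measured, and up to 3 members per list. Others are said to be chosen after their values were seen. The effect, the lists and the rules were chosen with earlier results of these data known. Alternatives were other filters, probe set averaging, a trended robust variance, array weights, repeated normalisation, centring, a replicate block, array spread as a covariate, models without interaction, other thresholds and leaving out arrays. Promoters are from RefSeq (GRCr8). Figures were drawn with matplotlib 3.10.9.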

Additional observations from a re-analysis of the deposited data

Results flagged for a closer look

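Of 356 groups of 4 or 5 livers tested for a single distant value (88 genes and array spread, 4 groups each), 19 had one by Dixon's test, and chance gives about 1 in 20. The values, with the range of the others of the group, were as follows. In NN, Dcn was 2.64 in NN 3 (others 3.00 to 3.07), Gnmt 6.45 in NN 4 (7.53 to 7.75) and H19 8.19 in NN 2 (7.13 to 7.31). In ND, Fuom was 2.86 in ND 1 (3.25 to 3.29) and Pcyt1a 4.78 in ND 1 (4.51 to 4.56). Plin1 was 3.32 in ND 2 (2.99 to 3.02) and Lum 1.60 in ND 3 (1.39 to 1.41). B3galt4 was 3.34 in ND 4 (3.67 to 3.71), and Ptprc, the leukocyte marker CD45, was 3.83 in ND 4 (3.26 to 3.32).

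In DN, Bmal1 was 4.05 in DN 1 (4.80 to 5.05) and Calr 8.33 in DN 3 (8.87 to 9.08). Acaa2 was 9.92 in DN 4 (8.95 to 9.18) and Xbp1 6.43 in DN 5 (7.97 to 8.54). In DD, Aurka was 4.36 in DD 2 (4.47 to 4.48) and Hspb9 3.76 in DD 2 (4.01 to 4.06). The other 4 were in DD 3: Afp 4.79 (5.86 to 6.03), Cbs 6.55 (7.01 to 7.03), Eci1 5.81 (6.85 to 6.98) and Sft2d2 5.50 (5.68 to 5.71). Of the genes described above as differing in one direction, this touches Sft2d2, Dcn and Fuom.

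The pregnancy difference in array spread differed between lactation diets by -0.116 (exact permutation test, p = 0.0200), with DN above NN and DD below ND on average. This test was not planned, and its null is no pregnancy effect under either lactation diet.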

How the results depend on the processing

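The average pregnancy effect had 0 calls by limma under every alternative run. The 24 genes described as differing in one direction were chosen by the size of this average against its error, so that the sign of the average says nothing of stability. Leaving out 1 array at a time, 17 of the 24 kept the same sign in both differences, and Dcn, Fuom, Klk6, Kmo, Marchf4, Psph and Rps27l3 lost it at least once. The count at an unadjusted p under 0.05 (367) was 44 at p under 0.01, 223 with the stricter filter, 551 with array weights, 646 with array spread as a covariate and 679 with that covariate and without NN 2, and 289 to 530 leaving out 1 array at a time. With spread as a covariate, and then also without NN 2, the interaction had 580 and 688 such genes, DN minus NN 932 and 1028, and DD minus ND 363 and 379. Leaving out 1 array gave 0 to 639 interaction calls and 0 to 18 DN minus NN calls, in both the upper value without NN 2, and at an unadjusted p under 0.05 905 to 2691 genes for DN minus NN, 549 to 1757 for DD minus ND and 288 to 655 for lactation. The lactation effect had 650 such genes with array weights, and 685 and 1 call (Mt2A) with the replicate block. The block changed no other call, dropped DN 5, which has no partner, and left the pregnancy effect at 0 calls. The replicate numbers were not taken as pairs: over 24 pairs with the same number in different groups the deviations correlated at a mean of 0.07, from -0.454 to 0.533, with 11 over 0.1, against a mean of -0.0185 and 26 of 84 over 0.1 for different numbers. As a hint from the data, 8 of 17 arrays correlated best with their own number. The cause of these shifts was not tested.

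Some uncalled averages near 0 changed sign. Leaving out 1 array gave ranges of -0.030 to 0.10 for Pemt, -0.084 to 0.051 for Pcyt1a, -0.23 to 0.025 for Gnmt, -0.14 to 0.032 for Cbs, -0.26 to 0.17 for H19, -0.23 to 0.36 for Cyp2c11, -0.015 to 0.17 for Tfec, -0.060 to 0.13 for Dnajc3 and -0.0240 to 0.00149 for array spread. Without DD 3 and DN 3, values were 0.064 for Bhmt, 0.040 for Pcyt1a, 0.095 for Gnmt, 0.053 for Cbs, -0.16 for Cyp2c11, -0.017 for Dnajc3 and 0.000601 for array spread. The replicate block gave 0.021 for Gnmt and -0.0199 for Dnajc3, array weights 0.0026 for Pcyt1a, repeated normalisation -0.014 for Dnajc3, and spread as a covariate without NN 2 0.041 for H19 and -0.0027 for Cyp2c11. Of 31 list medians, 13 kept their sign under all alternatives. Signal near background limits Or8s10, Lum and Scp2. Group means near the median of all values (2.58) also limit Prss27, Klk6, Psmb11, Tnfsf15 and Pde8b. The median SE of 0.119 limits all genes.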
